A study of Homo sapiens with 4 samples.

Results

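Expression of the genes for semaphorins, plexins and neuropilins was followed through 4 populations of hematopoietic differentiation. The members were the 31 genes of the deposited table whose symbol is that of a semaphorin of classes 3 to 7 (20 genes), of a plexin (9 genes) or of a neuropilin (2 genes), out of 58274 gene identifiers. Each member stood on a row of its own. All members were kept, and 29 of them reached at least 1 FPKM (fragments scaled to the length of the transcript and to the mapped fragments of the library) in at least 1 library, whereas SEMA3D and PLXNC1 did not.

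Semaphorins are guidance proteins that were first known from growing axons and that also steer endothelial cells, mesoderm cells and leukocytes. Class 3 semaphorins are secreted, classes 4, 5 and 6 span the membrane, and SEMA7A is held on the cell surface by a lipid anchor. Plexins are the signalling receptors, whose cytoplasmic part acts on small GTPases and loosens adhesion to the matrix. Most class 3 semaphorins bind plexins only through a neuropilin, and neuropilins are at the same time coreceptors for vascular endothelial growth factor (VEGF).

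The start of the series was the human iPSC line BC1, kept undifferentiated, and 3 further populations were derived from it. The cultures received activin A and BMP4 for 2 days and then VEGF and bFGF. Day 2 gave the APLNR+ mesoderm cells, day 5 the CD31+CD34+ cells, which are hemogenic endothelial progenitors, and day 8 the CD43+ cells, which are hematopoietic progenitors. All populations came from this 1 line and each had 1 library, so no difference has a replicate check and no test between populations was possible. Intervals given with fold differences are exact 95% intervals from estimated fragments and cover counting error only.

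The libraries held between 19700000 and 23600000 mapped fragments, as read from the steps between low values. The markers of each population had their highest sum in the population so labelled. The summed level of 8 endothelial markers was 49.1, 76.0, 1386 and 304 FPKM in BC1, APLNR+, CD31+CD34+ and CD43+ cells, that of 6 mesoderm markers 2.52, 2218, 217 and 26.8 FPKM, and that of 8 hematopoietic markers 14.4, 11.4, 178 and 7499 FPKM. The 6 pluripotent markers summed to 3115, 1039, 147 and 116 FPKM, with POU5F1 still at 573 FPKM in APLNR+ cells, and 6 markers of mature T, B and myeloid cells to at most 13.1 FPKM. PTPRC, the gene of CD45, did not exceed 0.0349 FPKM, so the CD43+ cells held next to no transcript of this pan-leukocyte marker.

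Summed semaphorin expression was lowest in CD43+ cells, and the sums of plexins and of neuropilins were lowest in BC1. Semaphorins together gave 378, 356, 407 and 125 FPKM in the 4 populations in order, plexins 170.3, 335, 563 and 197 FPKM, and neuropilins 11.8, 141, 299.5 and 25.6 FPKM. Summed ligand expression thus stayed between 356 and 407 FPKM until CD31+CD34+ cells, whereas the sums of both kinds of receptor were highest in CD31+CD34+ cells. For plexins this rests on PLXND1 alone, at 29.1, 48.7, 432 and 133 FPKM. A plexins summed to 35.1, 216, 51.9 and 19.0 FPKM and were highest in APLNR+ cells. B plexins summed to 105, 70.3, 77.7 and 44.4 FPKM and were highest in BC1. Both of these classes were lowest in CD43+ cells. Of the 31 members, 10 were highest in BC1, 8 in APLNR+ cells, 12 in CD31+CD34+ cells and 1, PLXNA4, in CD43+ cells. Among all 17137 genes with at least 1 FPKM in a library, these shares were 27.7%, 22.7%, 25.5% and 24%, so the 3.23% of members that were highest in CD43+ cells stood below the share of all genes.

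**Figure D1:**
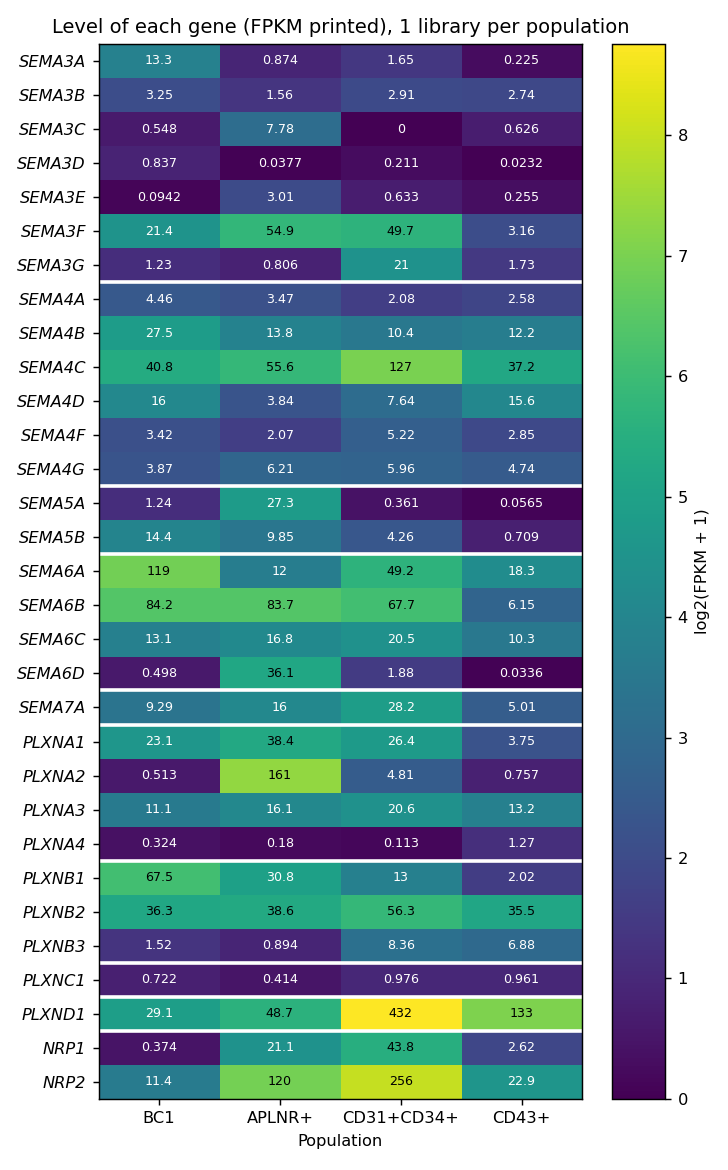
Level of each of the 31 genes in each population, with 1 library per population; the colour gives log2(FPKM + 1) and the printed number the FPKM, and white lines separate the classes. PLXNA2 stands out in APLNR+ cells at 161 FPKM, and PLXND1 and NRP2 stand out in CD31+CD34+ cells at 432 and 256 FPKM.

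A gene was called higher or lower at a step when log2(FPKM + 1) changed by at least 1, and 2 sets of members peaked by this rule. SEMA3C, SEMA3E, SEMA5A, SEMA6D and PLXNA2 were higher in APLNR+ cells than both before and after. SEMA3G, SEMA4C, SEMA6A, PLXND1, NRP1 and NRP2 were higher in CD31+CD34+ cells than both before and after, of which NRP1 was no longer called over APLNR+ cells after scaling by median-of-ratios size factors. Peaks of this kind were found in 4.22% of all genes (3.62% of protein-coding genes) for APLNR+ cells and in 4.97% (4.82%) for CD31+CD34+ cells, against 5 and 6 of the 31 members. Some markers of other cells were also highest in CD31+CD34+ cells, though not all of them peaked by the rule above. The sum of 6 smooth muscle and pericyte markers was 191, 167, 536 and 43.0 FPKM, of which RGS5 gave 393 FPKM in CD31+CD34+ cells, while PDGFRB was at 6.69 FPKM and MYH11 at 0.0221 FPKM there. Within this list ACTA2 was also highest there, at 48.3 FPKM, whereas TAGLN and CNN1 had smaller values there than in APLNR+ cells, 74.7 against 117 FPKM and 13.4 against 29.7 FPKM. Their part in the result was not tested.

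The promoters of the strongest members of both sets are shown because, among the members of each set with a promoter window, these genes had the largest folds into the mesoderm and the endothelial stage. The sequences are the 250 bases before the RefSeq transcription start on GRCh38.p14, 5′ to 3′ on the strand of the gene. PLXNA2 is at chr1:208244385-208244634 on the minus strand, SEMA6D at chr15:47183839-47184088 on the plus strand, PLXND1 at chr3:129606677-129606926 on the minus strand and SEMA3G at chr3:52445104-52445353 on the minus strand. Capitals mark matches, on either strand, to words for the motifs of 6 kinds of factor, and neighbouring matches can overlap. The word for SP1 was GGGCGG. ETS factors were given the word AGGAAG and a second word that reads CGGAAG. For GATA factors these were the word AGATAA and a form of it ending in G, which is AGATAG, and with a T in front also the word TGATAA and its form TGATAG. The word for TCF/LEF was CTTTGA, that for T-box factors was GGTGTGA and that for forkhead factors was TGTTTAC.
PLXNA2: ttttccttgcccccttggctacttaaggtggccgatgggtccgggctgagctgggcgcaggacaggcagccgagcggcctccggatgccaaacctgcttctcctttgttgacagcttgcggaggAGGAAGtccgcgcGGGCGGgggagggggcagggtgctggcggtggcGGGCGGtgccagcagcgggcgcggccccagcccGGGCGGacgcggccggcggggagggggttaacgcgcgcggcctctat
SEMA6D: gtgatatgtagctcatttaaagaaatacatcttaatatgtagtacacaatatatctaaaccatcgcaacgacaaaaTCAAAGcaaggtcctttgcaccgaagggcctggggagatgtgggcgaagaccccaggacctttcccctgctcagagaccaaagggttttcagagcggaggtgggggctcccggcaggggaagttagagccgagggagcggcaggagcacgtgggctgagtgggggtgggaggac
PLXND1: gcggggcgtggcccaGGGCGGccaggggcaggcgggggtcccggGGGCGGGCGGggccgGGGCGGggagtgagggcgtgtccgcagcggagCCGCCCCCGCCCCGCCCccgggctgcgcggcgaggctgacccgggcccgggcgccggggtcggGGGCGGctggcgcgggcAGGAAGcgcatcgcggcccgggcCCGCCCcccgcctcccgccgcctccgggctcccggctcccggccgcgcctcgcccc
SEMA3G: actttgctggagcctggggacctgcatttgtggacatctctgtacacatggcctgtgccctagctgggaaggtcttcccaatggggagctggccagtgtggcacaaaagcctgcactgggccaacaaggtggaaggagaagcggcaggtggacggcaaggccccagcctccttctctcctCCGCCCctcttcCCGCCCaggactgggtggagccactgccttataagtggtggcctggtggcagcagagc

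These 4 windows were unlike each other. PLXND1 had 88.8% G and C, 41 CpG dinucleotides, 9 SP1 words and 1 ETS word, and PLXNA2 had 72.4%, 27 CpG, 3 SP1 words and 1 ETS word. SEMA6D had 53.6%, 9 CpG and a TCF/LEF word as its only match, and SEMA3G had 62%, 4 CpG and 2 SP1 words. The median of all 35116 windows of this length was 58% and 11 CpG. A window was found for 27 members and not for SEMA3A, SEMA6A, SEMA6B and NRP1, and where a gene had several starts the one nearest to its annotated 5′ end was used. The members had a median of 17 CpG. SP1 words were in 19 of the 27 windows (42.6% of all windows), ETS words in 8 (40.8%), GATA words in 6 (22.3%), TCF/LEF words in 2 (11.2%), a forkhead word in 1 (2.98%) and a T-box word in 0 (2.76%). Such a match is a run of letters and not a binding site. Of the 6 members that peaked in CD31+CD34+ cells, the 4 with a window, SEMA3G, SEMA4C, PLXND1 and NRP2, had 2, 4, 9 and 3 SP1 words. Of those that peaked in APLNR+ cells, SEMA5A and PLXNA2 had 7 and 3, and SEMA3C, SEMA3E and SEMA6D had 0.

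Class 3 semaphorins, the secreted ligands, summed to 40.6, 68.9, 76.1 and 8.76 FPKM. SEMA3F, a repulsive ligand of NRP2 (chromosome 3, 50155045 to 50189075), led the class in all 4 libraries, with 21.4 FPKM in BC1, 54.9 FPKM in APLNR+ cells, 49.7 FPKM in CD31+CD34+ cells and 3.16 FPKM in CD43+ cells. It was 2.57-fold higher in APLNR+ cells than in BC1 (2.34 to 2.82) and 15.7-fold lower in CD43+ than in CD31+CD34+ cells (12.8 to 19.5). SEMA3G, which is known from arterial endothelium (chromosome 3, 52433053 to 52445085), was at 1.23, 0.806, 21.0 and 1.73 FPKM. Its level in CD31+CD34+ cells was thus apart from the other 3, with a 26.1-fold difference to APLNR+ cells (19.3 to 36.3) and a 12.2-fold difference to CD43+ cells (9.84 to 15.2).

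The other class 3 genes were low after the pluripotent or the mesoderm stage. SEMA3A, the founding axon repellent of vertebrates and a ligand of NRP1, was at 13.3, 0.874, 1.65 and 0.225 FPKM, so the 15.2-fold difference between BC1 and APLNR+ cells (6.45 to 41.1) was the largest between successive populations. SEMA3C, which guides migrating cells of the heart outflow tract, had 0.548 FPKM in BC1 and 7.78 FPKM in APLNR+ cells, was listed at 0 in CD31+CD34+ cells and had 0.626 FPKM in CD43+ cells. SEMA3E, the ligand that binds PLXND1 without a neuropilin, was at 0.0942, 3.01, 0.633 and 0.255 FPKM. It was therefore low in the very cells in which its receptor was highest. SEMA3B stayed between 1.56 and 3.25 FPKM and SEMA3D between 0.0232 and 0.837 FPKM.

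The class 3 genes lie in 2 neighbourhoods. SEMA3C, SEMA3E, SEMA3A and SEMA3D lie in this order on chromosome 7 between 80742538 and 85186855, and SEMA3F, SEMA3B and SEMA3G lie on chromosome 3 between 50155045 and 52445085, with PLXNB1 close by at 48403854 to 48430051. On chromosome 7, SEMA3C and SEMA3E were highest in APLNR+ cells, and SEMA3A and SEMA3D in BC1, SEMA3D at only 0.837 FPKM. The closest of these genes, SEMA3E (end at 83649010) and SEMA3A (start at 83955777), thus differed in where they were highest. On chromosome 3, SEMA3F was highest in APLNR+ cells, SEMA3G in CD31+CD34+ cells and SEMA3B in BC1.

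Class 4 semaphorins summed to 96.1, 84.95, 158 and 75.2 FPKM and made up 60.4% of semaphorin expression in CD43+ cells, against 25.4% in BC1. SEMA4C, a ligand of PLXNB2 (chromosome 2, 96859716 to 96870757), was at 40.8, 55.6, 127 and 37.2 FPKM and led the class throughout. It was 2.29-fold higher in CD31+CD34+ than in APLNR+ cells (2.09 to 2.50) and 3.42-fold lower in CD43+ cells (3.08 to 3.80). SEMA4D, also named CD100, which binds B plexins and is shed by leukocytes and platelets, was at 16.0, 3.84, 7.64 and 15.6 FPKM. It was the ligand with the clearest return: 4.18-fold lower in APLNR+ cells than in BC1 (3.66 to 4.79), and in CD43+ cells back near its level in BC1, at 205% of that in CD31+CD34+ cells.

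The other class 4 genes moved less. SEMA4B was at 27.5, 13.8, 10.4 and 12.2 FPKM. SEMA4F, at 3.42, 2.07, 5.22 and 2.85 FPKM, just passed the threshold between APLNR+ and CD31+CD34+ cells with a log2 change of 1.02. SEMA4A, which acts on T cells and endothelial cells, stayed between 2.08 and 4.46 FPKM, and SEMA4G between 3.87 and 6.21 FPKM. SEMA4G shares 22.3% of its exon bases with MRPL43 on the opposite strand, which was at 59.5 to 84.5 FPKM, and the library kit does not mark strand, so fragments of the shared bases cannot be told from those of MRPL43.

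Class 5 semaphorins, which carry thrombospondin repeats, were a mesoderm and pluripotent feature, with sums of 15.6, 37.1, 4.62 and 0.765 FPKM. SEMA5A (chromosome 5, 9035026 to 9546075) had 27.3 FPKM in APLNR+ cells and lower values in the other populations, 1.24 FPKM in BC1, 0.361 FPKM in CD31+CD34+ cells and 0.0565 FPKM in CD43+ cells. It was 22.1-fold higher in APLNR+ cells than in BC1 (18.8 to 26.2) and 75.6-fold lower in CD31+CD34+ cells (57.2 to 101). SEMA5B instead had a smaller value in each later population, at 14.4, 9.85, 4.26 and 0.709 FPKM, and its level in CD43+ cells was 20.3-fold below that in BC1 (15.8 to 26.5).

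Class 6 semaphorins, membrane ligands of A plexins, were the main class in BC1, with 57.3% of semaphorin expression, and summed to 217, 149, 139 and 34.8 FPKM. SEMA6A (chromosome 5, 116443616 to 116574934) was at 119, 12.0, 49.2 and 18.3 FPKM. It was 9.92-fold lower in APLNR+ cells than in BC1 (9.12 to 10.8), 4.11-fold higher in CD31+CD34+ than in APLNR+ cells (3.76 to 4.48) and 2.69-fold lower in CD43+ cells (2.49 to 2.89). SEMA6D (chromosome 15, 47184101 to 47774223), a ligand of PLXNA1 known from heart development, ran the other way until CD31+CD34+ cells. Its values were 0.498, 36.1, 1.88 and 0.0336 FPKM. Its difference between BC1 and APLNR+ cells was 72.4-fold (52.1 to 106), and it was 19.1-fold lower in CD31+CD34+ cells (16.3 to 22.7) and at least 46.9-fold lower again in CD43+ cells, where it was under 3 fragments. So the APLNR+ cells, low in SEMA6A, were the only population of the 4 with more than 1.88 FPKM of SEMA6D.

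SEMA6B (chromosome 19, 4542593 to 4559808) was at 84.2, 83.7, 67.7 and 6.15 FPKM, nearly level until its 11.01-fold lower value in CD43+ cells (9.89 to 12.3). SEMA6C was within 10.3 to 20.5 FPKM. SEMA7A, which binds PLXNC1 and integrin beta 1, was at 9.29, 16.0, 28.2 and 5.01 FPKM and was 5.62-fold lower in CD43+ than in CD31+CD34+ cells (4.91 to 6.47).

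**Figure D2:**
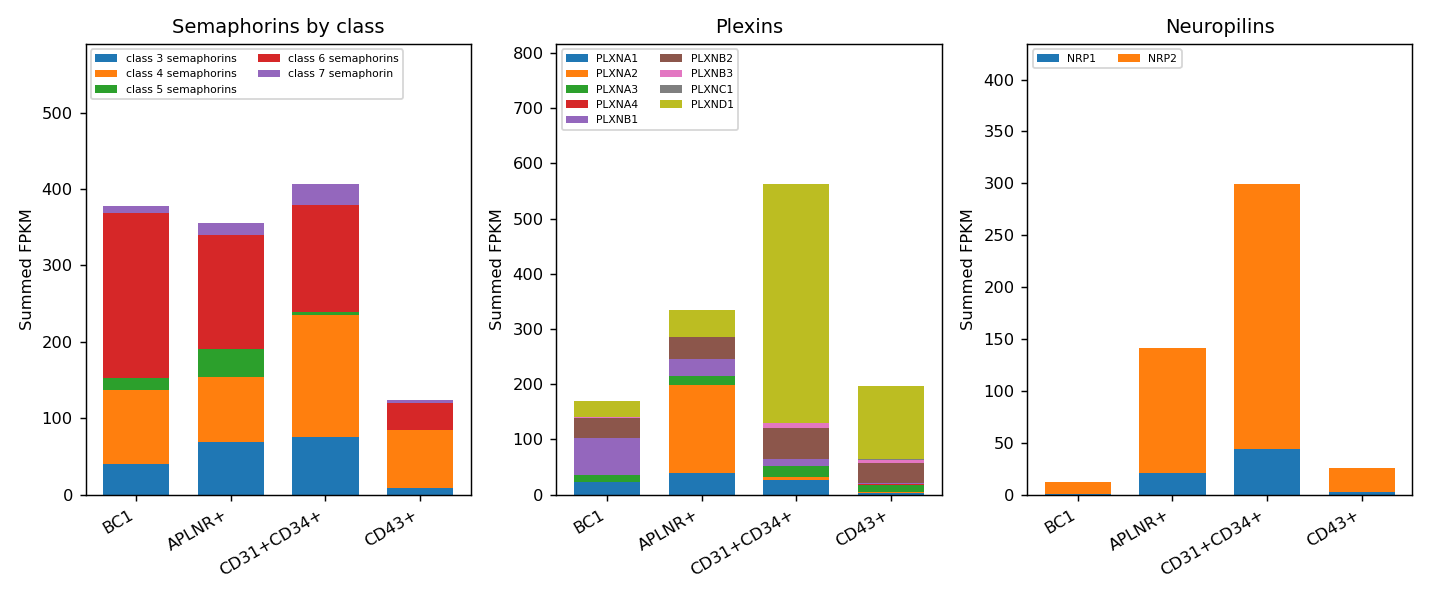
Summed FPKM of the semaphorins by class, of the plexins by gene and of the neuropilins by gene in the 4 populations, with 1 library per bar and no error bars. PLXNA2 makes up 48.1% of the plexin bar in APLNR+ cells and PLXND1 76.8% of it in CD31+CD34+ cells.

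A different plexin led in each of the first 3 populations. In BC1 it was PLXNB1, with 39.7% of plexin expression, in APLNR+ cells PLXNA2, with 48.1%, and in CD31+CD34+ cells PLXND1, with 76.8%. PLXND1 also led in CD43+ cells, with 67.3%. FPKM values are per length of transcript, so these shares compare levels between genes.

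PLXNA2 (chromosome 1, 208022242 to 208244320) is a receptor of class 6 semaphorins and, with neuropilins, of class 3 semaphorins. It showed the largest change of all members between successive populations on the log2(FPKM + 1) scale. As a fold it was the largest where both values were above 3 fragments. SEMA3C, listed at 0 in CD31+CD34+ cells, was at least 215-fold lower there than in APLNR+ cells, with no upper bound. PLXNA2 had 0.513 FPKM in BC1, 161 FPKM in APLNR+ cells, 4.81 FPKM in CD31+CD34+ cells and 0.757 FPKM in CD43+ cells. Only APLNR+ cells were thus high, by 314-fold over BC1 (261 to 381) and by 33.5-fold over CD31+CD34+ cells (31.6 to 35.4). The value in APLNR+ cells ranked 540 among the 13910 protein-coding genes with at least 1 FPKM in a library, and that in BC1 ranked 12948.

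The other A plexins did not follow PLXNA2. PLXNA1, a receptor subunit for SEMA3A and SEMA6D, was at 23.1, 38.4, 26.4 and 3.75 FPKM and was 7.04-fold lower in CD43+ than in CD31+CD34+ cells (6.51 to 7.62). PLXNA3 remained between 11.1 and 20.6 FPKM. PLXNA4 was low, at 0.324, 0.180, 0.113 and 1.27 FPKM, but was 11.2-fold higher in CD43+ than in CD31+CD34+ cells (7.20 to 18.6), the only member called higher at that step.

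Of the B plexins, PLXNB1 and PLXNB2 are receptors of class 4 semaphorins, and PLXNB3 is one of SEMA5A. PLXNB1 was lower at each step, at 67.5, 30.8, 13.0 and 2.02 FPKM. The differences were 2.20-fold (2.12 to 2.28), 2.36-fold (2.24 to 2.49) and 6.46-fold (5.73 to 7.33), and it ended 33.5-fold below BC1 (29.9 to 37.8). The sum of 6 neural markers also became smaller along the series, from 278 to 6.53 FPKM, nearly all of it TUBB3, while NEUROD1 was at 0 throughout, and their part in the result was not tested. PLXNB2 stayed between 35.5 and 56.3 FPKM, so that it replaced PLXNB1 as the leading B plexin from APLNR+ cells on. PLXNB3 was at 1.52, 0.894, 8.36 and 6.88 FPKM and was 9.36-fold higher in CD31+CD34+ than in APLNR+ cells (4.77 to 19.7). It shares 20.4% of its exon bases with SRPK3, which did not exceed 0.349 FPKM. PLXNC1, the receptor of SEMA7A, did not exceed 0.976 FPKM.

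PLXND1 (chromosome 3, 129555175 to 129606818), the plexin of developing blood vessels, had 29.1 FPKM in BC1, 48.7 FPKM in APLNR+ cells, 432 FPKM in CD31+CD34+ cells and 133 FPKM in CD43+ cells. It was 8.89-fold higher in CD31+CD34+ than in APLNR+ cells (7.99 to 9.92), where it ranked 169 among the protein-coding genes. In CD43+ cells it was 3.26-fold lower (3.04 to 3.51) but was still 4.55-fold above BC1 (3.91 to 5.31). Levels in CD43+ cells were called higher than in BC1 for PLXND1, PLXNB3 (6.88 FPKM) and NRP1 (2.62 FPKM). They were called lower for SEMA3A, SEMA3F, SEMA4B, SEMA5A, SEMA5B, SEMA6A, SEMA6B, PLXNA1 and PLXNB1. The share of all genes was not computed for this comparison.

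Both neuropilins were called higher at the first 2 steps and lower at the last, although NRP1 just passed the threshold at the second step and did not after median-of-ratios scaling. NRP2 (chromosome 2, 205681990 to 205798133), the coreceptor of SEMA3F and SEMA3G, was at 11.4, 120.3, 256 and 22.9 FPKM. NRP1 (chromosome 10, 33177492 to 33336262), the coreceptor of SEMA3A and VEGF, was at 0.374, 21.1, 43.8 and 2.62 FPKM. NRP2 was therefore higher than NRP1 in every library and made up between 85.1% and 96.8% of neuropilin expression. At the first step NRP1 differed by 56.5-fold (34.2 to 94.8) and NRP2 by 10.5-fold (9.67 to 11.4), at the second by 2.07-fold (1.92 to 2.23) and 2.13-fold (2.07 to 2.19). At the last step NRP2 was 11.2-fold lower (10.5 to 11.8) and NRP1 16.7-fold lower.

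The steps were then compared with all genes. From BC1 to APLNR+ cells, 8 members were higher (9.15% of all genes, 8.79% of protein-coding genes) and 4 lower (9.32% and 8.58%). The 8 were NRP1, NRP2, PLXNA2, SEMA3C, SEMA3E, SEMA3F, SEMA5A and SEMA6D, and they made up 25.8% of the members. The 12.9% of members that were lower, SEMA3A, SEMA4D, SEMA6A and PLXNB1, were close to the share of all genes. From APLNR+ to CD31+CD34+ cells, 8 members were higher (13% of all genes and of protein-coding genes) and 7 lower (11.4% and 11.1%), which is 25.8% and 22.6% of the members. From CD31+CD34+ to CD43+ cells, 1 member was higher (7.63% of all genes, 6.79% of protein-coding genes) and 15 were lower (13.5% and 14.3%), which is 48.4% of the members. After scaling by median-of-ratios size factors, NRP1 and SEMA4F were no longer called at the second step, and SEMA4D was called higher at the last. The median change of the 31 members was 0.09, 0.27 and -0.94 on the log2 scale, and that of all genes 0.00, 0.01 and -0.08.

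**Figure D3:**
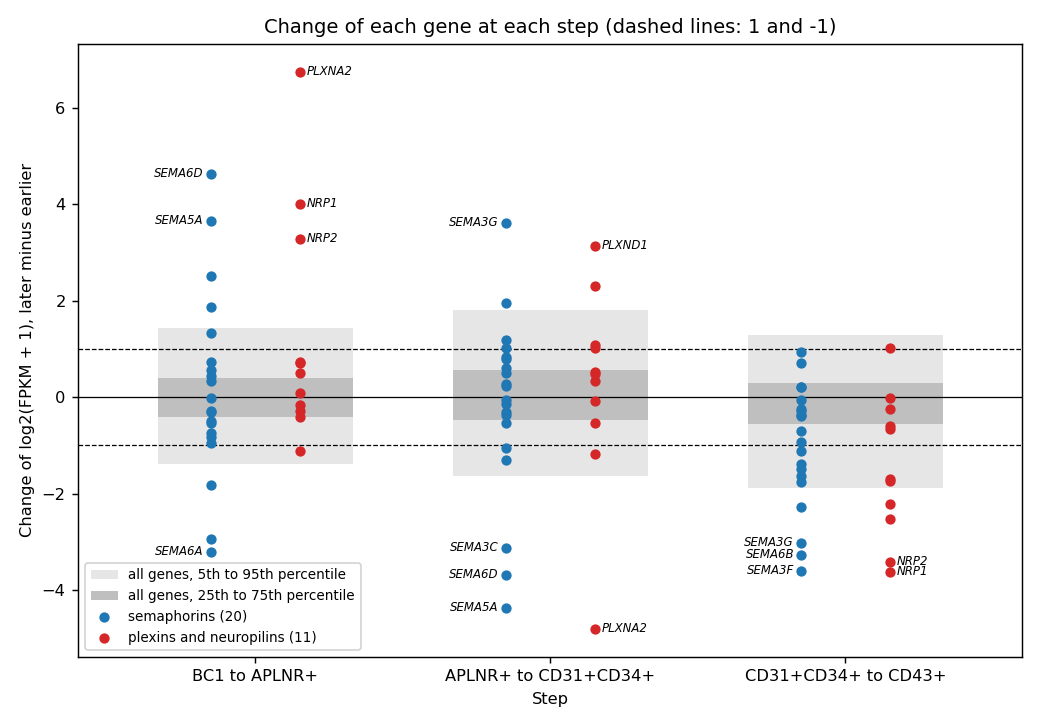
Change of log2(FPKM + 1) of each of the 20 semaphorins and 11 receptors at the 3 steps, later minus earlier population, over grey bands for all 17137 genes; dashed lines mark changes of 1 and -1. At the last step 15 members lie at or below -1 and 1 lies above 1.

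The lower values in CD43+ cells were spread over ligands and receptors, with 9 of the 20 semaphorins and 6 of the 11 receptors. In a bulk sample, fewer cells with a transcript and less transcript per cell cannot be told apart. Of the 15 members with at least 10 FPKM in CD31+CD34+ cells, SEMA4B alone had a higher value in CD43+ cells, at 118%. Choosing members by a high level in CD31+CD34+ cells favours lower values in CD43+ cells, and the share of all genes was not computed. Below that level, SEMA4A, SEMA4D and PLXNA4 had 124%, 205% and 1123%, SEMA3C was listed at 0 in CD31+CD34+ cells, and the others were lower. The lowest of the 15 were NRP1, at 5.99% of its level in CD31+CD34+ cells, SEMA3F, at 6.37%, SEMA3G, at 8.21%, NRP2, at 8.97%, and SEMA6B, at 9.08%. PLXNB2 and PLXNA3 kept 63.1% and 64.3%. In CD43+ cells, the endothelial markers PECAM1 and EMCN were higher than in CD31+CD34+ cells, at 136% and 127%. The other markers of this list of 8 were lower. All 8 were at 1 FPKM or more in CD31+CD34+ cells and 7 in CD43+ cells, and the kept levels of the 7 that had at least 10 FPKM ranged from 1.09% for SOX7, 4.18% for CDH5 and 6.68% for KDR to 136% for PECAM1. The part of a changed share of endothelial cells in the values of the members was not tested.

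**Figure D4:**
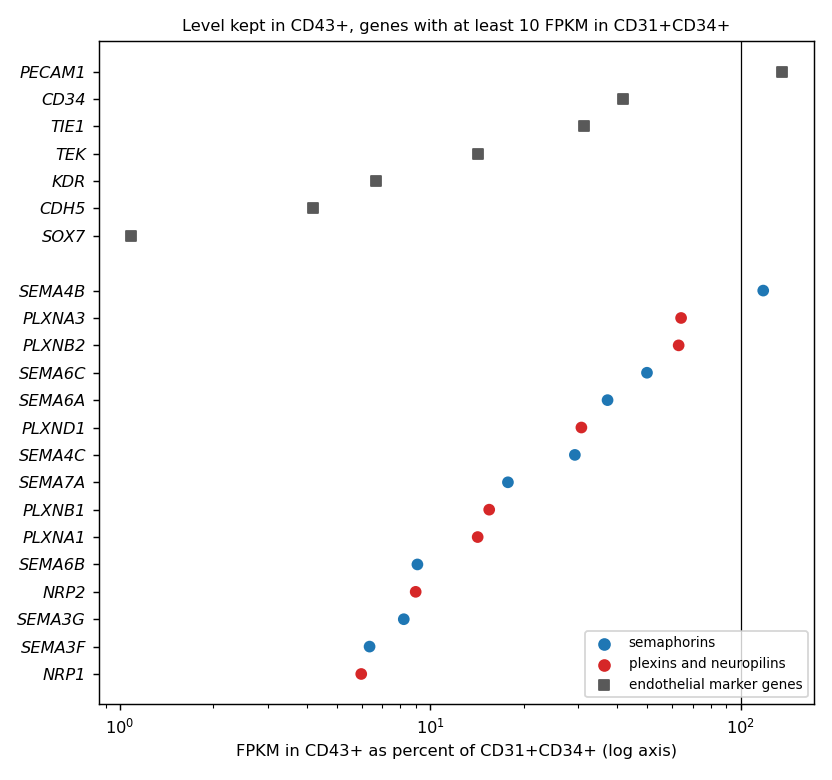
FPKM in CD43+ cells as a percentage of FPKM in CD31+CD34+ cells, on a log axis, for the 15 members and 7 endothelial marker genes with at least 10 FPKM in CD31+CD34+ cells; 1 library per population. The members range from 5.99% for NRP1 to 118% for SEMA4B, and the marker genes from 1.09% for SOX7 to 136% for PECAM1. Both sets were chosen by their level in CD31+CD34+ cells, and the wide marker range sets little limit.

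Ligands and receptors known to bind each other were next considered as pairs. Of 32 listed pairs, both genes had at least 5 FPKM in 11 pairs in BC1, 13 in APLNR+ cells, 9 in CD31+CD34+ cells and 3 in CD43+ cells. These counts rest on the minimum: at 1 FPKM they were 18, 21, 22 and 16, with the most pairs in CD31+CD34+ cells. At 10 FPKM they were 10, 7, 6 and 2, with the most pairs in BC1. SEMA4C with PLXNB2 and SEMA7A with ITGB1, the gene of integrin beta 1, were present in all 4 libraries, the latter with SEMA7A at 5.01 FPKM in CD43+ cells. SEMA3A with PLXNA1 was present in BC1 alone, SEMA6A with PLXNA2 and SEMA3C with NRP1, NRP2 and PLXND1 in APLNR+ cells alone, and SEMA3G with NRP2 in CD31+CD34+ cells alone. These too rest on the minimum: PLXNA2 was just under it in CD31+CD34+ cells, at 4.81 FPKM. At 1 FPKM, SEMA6A with PLXNA2 and SEMA3A with PLXNA1 were also present in CD31+CD34+ cells. SEMA3G with NRP2 was then also present in BC1 and CD43+ cells, with SEMA3G at 1.23 and 1.73 FPKM. At 5 FPKM, SEMA3F with NRP2 was present until CD31+CD34+ cells. In CD43+ cells the third pair was SEMA4D with PLXNB2. SEMA3E with PLXND1, SEMA3A with NRP1 and SEMA7A with PLXNC1 did not reach 5 FPKM together in any library. These counts are of transcripts in the same population and say nothing about binding.

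The 56 signalling partners of the family, listed from general knowledge, included collapsin response mediators, MICAL enzymes, GTPases and their exchange factors, kinases, coreceptors and proteases. Of these, 54 had at least 1 FPKM in a library, while PTPRC and VEGFC did not. At the 3 steps in order, 9, 13 and 3 of the 54 were higher (9.15%, 13% and 7.63% of all genes) and 7, 10 and 21 lower (9.32%, 11.4% and 13.5%). As shares of the 54 these are 16.7%, 24.1% and 5.56% higher and 13.0%, 18.5% and 38.9% lower. Their median change of -0.72 at the last step stood beside -0.08 for all genes.

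The partners with the largest changes included the VEGF receptor genes. At the first step CHL1, an adhesion molecule that acts with neuropilins, went from 0.222 to 25.2 FPKM, PGF from 3.03 to 17.3 FPKM and MMP14, a protease that sheds SEMA4D, from 45.4 to 191 FPKM, while DPYSL3 went from 146 to 11.9 FPKM and ERBB2, a partner of B plexins, from 138 to 27.6 FPKM. At the second step the VEGF receptor genes were higher with PLXND1 and the neuropilins, FLT4 from 4.91 to 193 FPKM, FLT1 from 9.65 to 100.3 FPKM and KDR from 69.96 to 569 FPKM, as was the kinase FYN, from 30.2 to 306 FPKM. CHL1 was back at 2.42 FPKM. At the last step FLT4 and KDR went down to 6.36 and 38.01 FPKM, CRMP1, a collapsin response mediator, from 34.0 to 2.15 FPKM, and FARP1, an exchange factor bound by A plexins, from 19.4 to 1.40 FPKM, whereas TYROBP, an adaptor that signals with PLXNA1 in myeloid cells, went from 8.13 to 161 FPKM. The changes of the partners have no replicate check either.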

How the data were processed

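The authors deposited 1 table of FPKM, in which fragments are scaled to transcript length and to the mapped fragments of the library, with 1 column per population, made from total RNA with a TruSeq kit. The submitters' processing notes name RSEM, Bowtie, BWA and hg19, with no versions or roles. The gene identifiers and positions of the table are those of GRCh38: of 55647 identifiers with the same version in GENCODE release 29, 99.97% had the same position, and positions below are therefore those of GRCh38, with the first base as 1. Columns were assigned to populations by name.

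Rows of 1 identifier were summed. Changes were computed as differences of log2(FPKM + 1), a scale that understates folds of low genes, and were called at 1 or more. The background was formed by genes that reached 1 FPKM in any of the 4 libraries (17137 genes, 13910 of them protein-coding). Fragments behind a value were estimated from depths fitted to the steps between low FPKM values (94.0% to 95.9% of the values used came out within 0.1 of a whole number) and the median protein-coding transcript length less the fitted 260 or 280 bases. This length is too short for PLXND1, SEMA4C, SEMA3A, PLXNB3 and other genes with many short transcripts, and their intervals are then too wide. A value of at most 3 fragments was the floor. The depth and interval steps were tested on simulated data. FPKM are not counts, so no count model was used, and no p-value is given. Python 3.11.15, numpy 2.4.6, pandas 2.3.3 and scipy 1.17.1 were used.

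Members and lists were chosen with earlier results of these data known. Every member was described, with folds for those that changed by at least 1 and reached 10 FPKM. A few lower members were also given folds, a choice made after seeing their values. Partners were named when they changed by at least 2 with 10 FPKM in the higher library, at most 5 per step. Promoters are RefSeq windows for GRCh38.p14. The RefSeq sequences run on past the 250 bases used. For 16 of the 27 members, the last 30 bases of the longer sequence were in a GENCODE transcript of the gene. Among the printed promoters this was not so for PLXNA2. Protein features were planned but not analysed here.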

Additional observations from a re-analysis of the deposited data

How the results depend on the processing

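With 1 library per population, depth limits only counting error, and variation between cultures was not measured. Of 94 recomputed values, 71 stayed within 1.5 times the reported count or within the counting interval. From CD31+CD34+ to CD43+ cells, 1 member was called higher (7.63% of all genes). This count was 3 with a pseudocount of 0.1 (11.1%) and 2 after division by median-of-ratios size factors (8.90%). It was 0 with a filter of 5 FPKM (7.60%) and 0 with a threshold of 2 (2.28%). The threshold of 2 also gave 6 members higher (2.68% of all genes) and 2 lower (2.29%) at the first step. At the second it gave 3 higher (4.08%) and 4 lower (3.15%), and at the last 8 lower (4.32%). Called partners then numbered 5, 10 and 10 at the 3 steps in place of 16, 23 and 24. The shares of all genes called were 4.98%, 7.22% and 6.61% in place of 18.5%, 24.4% and 21.2%. Rescaling each library to the same total moved the median change of all genes at the last step from -0.08 to -0.19 and that of the 29 members with at least 1 FPKM from -1.11 to -1.47. No called change of a member turned its sign under either scaling, but NRP1 and SEMA4F were no longer called at the second step after median-of-ratios scaling. The ratio of the highest to the lowest summed level was 2.29 (same total) and 1.91 (median of ratios) for class 4 semaphorins in place of 2.11, 6.54 and 5.82 for class 6 in place of 6.23, 12.1 and 10.8 for A plexins in place of 11.4, and 2.22 (median of ratios) for B plexins in place of 2.37. With a minimum of 1 FPKM the pairs present numbered 18, 21, 22 and 16 in the 4 populations, and with 10 FPKM 10, 7, 6 and 2. No paired analysis was possible because each population had 1 library.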

Other observations

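SEMA6A-AS1, an antisense gene that shares 268 exon bases with SEMA6A on the opposite strand, was at 6.09, 0.235, 3.18 and 3.52 FPKM in BC1, APLNR+, CD31+CD34+ and CD43+ cells. Like SEMA6A it was highest in BC1 and lowest in APLNR+ cells, and fragments of the shared bases cannot be assigned to a strand with this kit.

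FURIN, the protease that cleaves class 3 semaphorins, was at 18.7, 48.7, 183 and 79.6 FPKM in the same order, GIPC1, the adaptor that binds the cytoplasmic end of neuropilins, was at 68.3, 107, 107 and 56.0 FPKM, and CFL1, the actin regulator cofilin, was at 712, 751, 817 and 756 FPKM. These 3 partners were outside the rule for named genes and were chosen after their values were seen.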
